A study of Mus musculus with 12 samples.

Results

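The genes described here encode the proteins of the mitochondrial ribosome. They were chosen by symbol (Mrpl or Mrps followed by a digit), which found 78 entries with 77 symbols among the 25511 genes of the fragment table. Of these entries, 50 belong to the large subunit and 26 to the small subunit. The remaining entries are Mrps36, now known as a subunit of 2-oxoglutarate dehydrogenase, and a second Mrpl10 entry on the opposite strand. RNA was sequenced from primary osteoblasts that collagenase had freed from the skull caps (calvariae) of newborn C57Bl/6J mice, and the label calls the cells osteoblast-like. Mice were wild type (WT) or labelled F2rl1 -/- (KO), the gene of protease-activated receptor 2, which proteases switch on by cleaving it; how the allele was made is not given in the sources used here. After 48 h of preculture, cells were grown for 4 days in medium for prostate cells that held 20% serum and was either unconditioned or conditioned for 48 h by MDA-PCa-2b, a human prostate cancer line. The design asks what this receptor contributes to the response of bone-forming cells to factors from prostate cancer cells.

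The mitochondrial ribosome translates the few messages of the mitochondrial genome, which encode core subunits of the respiratory chain and of ATP synthase. Its ribosomal RNAs come from the mitochondrial genome, whereas all of its proteins are made in the cytosol from nuclear genes and imported. Some of these proteins descend from bacterial ribosomal proteins, and others are particular to mitochondria. Osteoblasts draw energy from both glycolysis and respiration, and transcription factors such as NRF1 and GABP, with the PGC-1 coactivators, are known to act on nuclear genes of mitochondrial translation.

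There were 3 libraries per group, but libraries 0 and 1 of the unconditioned WT group differed by less than the sampling noise and were counted as 1, which left 2 libraries in that group and 11 in all. Libraries held 15023994 to 16956754 fragments. One sample of the unconditioned WT group carries the KO genotype label, and F2rl1 itself had 12 to 46 fragments in the KO libraries and 14 to 25 in the WT libraries, so WT and KO stand for the labels throughout. Markers of osteoblasts summed to 18752 to 48034 CPM per library (counts scaled to library size with TMM factors), against 44.1 to 124 CPM for macrophage markers. The osteoblast sum rested on Col1a1, Col1a2 and Spp1, with at least 100542, 78341 and 29518 fragments in a library. Runx2 had 1195 to 1411 fragments, Alpl 178 to 1568 and Sp7 32 to 604. Bglap (0 to 13), Ibsp (3 to 16) and Dmp1 (0 to 5), of the same marker list, lay near the floor. Conditioned KO libraries 1 and 2 stood apart from the other 9 across genes: 22.9% of the 13603 genes tested were higher and 20.7% lower in both of them than in each of the 9. Whether the samples in a group came from different animals is not given, and p-values describe the spread between these libraries alone. In whole cultures, less RNA per cell and fewer cells of a type cannot be told apart.

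Of the 78 entries, 77 passed the filter on low counts. Mrpl23, a large-subunit protein, did not, with 0 to 7 fragments per library. The others had between 5 and 3180 fragments in a library, with a median of 414, so most were measured well above the counting limit. Per length, on the authors' FPKM scale averaged over the 4 groups, the 73 tested members with an entry of their own spanned 1.27 to 134 with a median of 22.01. Of these, 11 lay under 10 FPKM and 25 over 30 FPKM. The median was 23.0 FPKM for 24 small-subunit members and 23.1 FPKM for 48 large-subunit members, so the medians of the subunits lay close together.

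The highest members were Mrpl52, a large-subunit protein particular to mitochondria, at 134 FPKM (libraries 108 to 174), Mrpl33, a small large-subunit protein with a bacterial counterpart, at 126 FPKM (84.4 to 163), and Mrps21, a small-subunit protein, at 90.8 FPKM (61.8 to 135). The ranges of Mrpl52, Mrpl33 and Mrps21 overlapped. The lowest tested members were Mrps36 at 1.27 FPKM (0.493 to 2.29), Mrps33, a small-subunit protein particular to mitochondria, at 3.33 FPKM (2.58 to 4.29), and Mrpl19, a large-subunit protein, at 5.65 FPKM (4.78 to 9.03). Their ranges did not overlap each other. The lowest tested member, Mrps36, is the one that belongs to another enzyme.

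**Figure D1:**
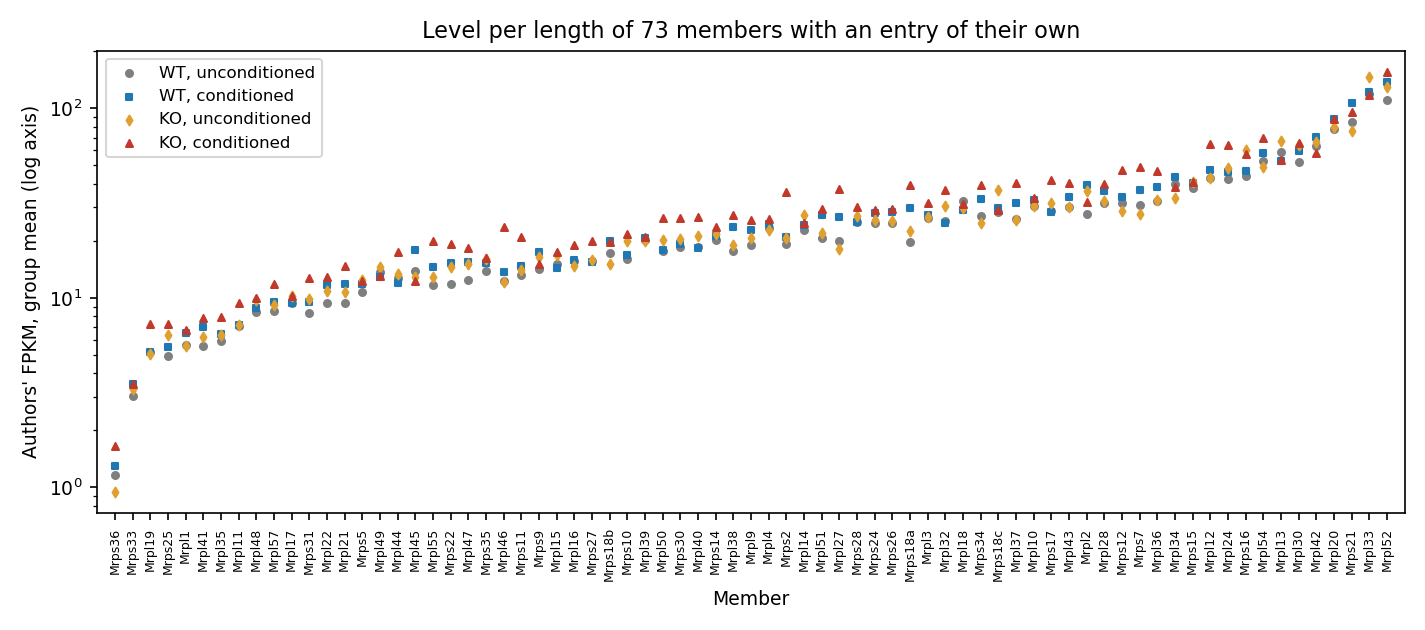
Level per length of 73 members with an entry of their own, as the authors' FPKM averaged over the libraries of each group (log axis), ordered by the mean of the groups. Levels run from 1.27 FPKM for Mrps36 to 134 FPKM for Mrpl52, and group means lie close together for most members.

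Centred on its own mean over the 11 libraries, each member gives a level relative to the other libraries, and the median over the 77 members summarises a library. For WT cells this median was -0.16 and -0.15 (log2 units) without conditioning, and with it 0.07, -0.13 and 0.02 for libraries 0, 1 and 2. For KO cells it was -0.15, -0.02 and -0.02 without conditioning, and with it -0.06, 0.22 and 0.38. Conditioned KO libraries 1 and 2 were thus the highest of all, and conditioned KO library 0 lay among the other groups. The median over all genes stayed between -0.02 and 0.01 in every library.

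**Figure D2:**
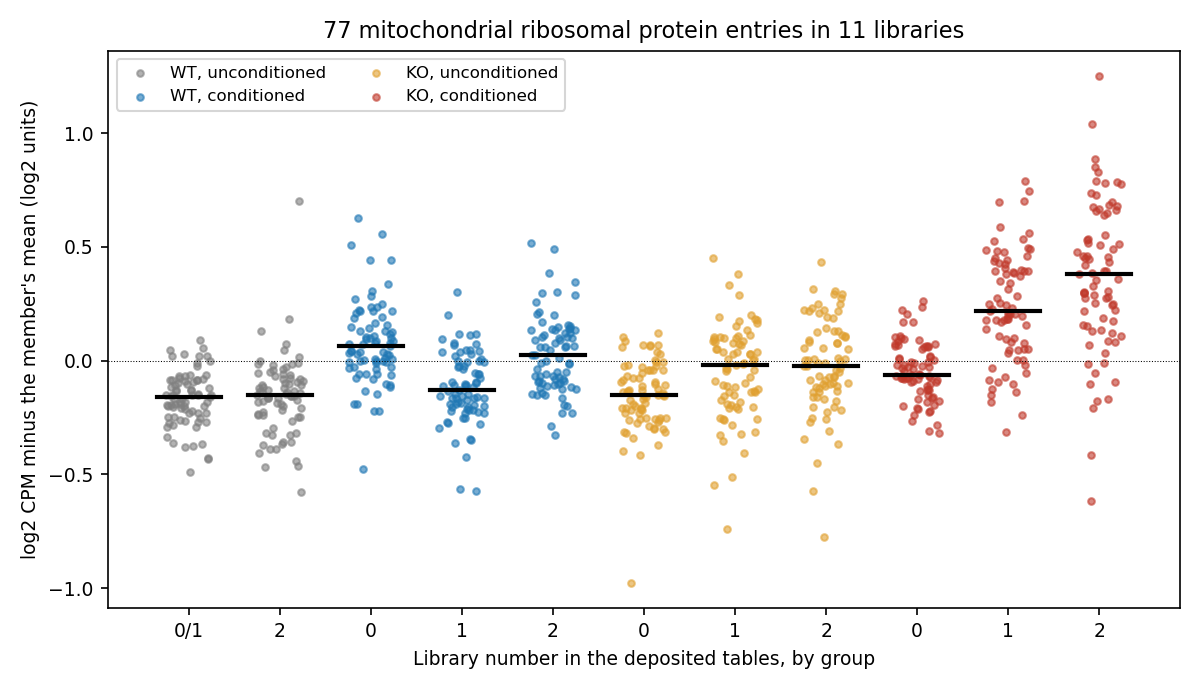
Each point is 1 of the 77 tested member entries, as log2 CPM minus that member's mean over 11 libraries, and the black bars are the medians of each library. The medians of conditioned KO libraries 1 and 2, at 0.22 and 0.38, lie above those of the other 9 libraries, which run from -0.16 to 0.07.

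The same order held for single members. Conditioned KO library 2 held the highest value of 50 members (64.9%, against 25.3% of all genes) and the lowest value of 2 members (2.60%, against 23.6%). In 43 members (55.8%) conditioned KO libraries 1 and 2 were both above the other 9 libraries, and in 1 member (1.30%) both were below, whereas all genes divided nearly evenly (22.9% and 20.7%). Library 0 was the lowest of the 3 conditioned KO libraries in 63 members (81.8%, against 45.2% of all genes) and the highest in 10 (13.0%, against 44.5%). The members that followed this order included both subunits: the medians of conditioned KO libraries 0, 1 and 2 were -0.07, 0.21 and 0.33 for 26 small-subunit members and -0.03, 0.23 and 0.39 for 49 large-subunit members.

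Members were called for conditioned against unconditioned medium in KO cells, and also for the average over both genotypes, given further below. With edgeR's quasi-likelihood test and Benjamini-Hochberg adjustment over 13603 genes, 10 members rose and 1 fell at an adjusted p under 0.05. The members that rose make up 13.0% of the 77, against 9.68% of all genes called higher, which is a share near the background, and the 1 that fell makes up 1.30%, against 8.58% of all genes called lower. The median log2 change was 0.30 over the members and 0.02 over all genes, and 66 of 77 were positive. The small subunit had 4 of 26 called, all higher (median 0.26), and the large subunit 6 higher and 1 lower of 49 (median 0.30). Members with a bacterial counterpart had a median of 0.26 (45 members, 5 higher and 1 lower) and those particular to mitochondria 0.36 (30 members, 5 higher). The called Mrps18a was counted among the latter, although by descent it could also be placed with the former.

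Mrpl27 showed the largest called change. It is the counterpart of bacterial L27, which lies near the site where the peptide bond is made, and its gene is on chromosome 11 from 94653791 to 94660087 (GRCm38). It measured 13.6, 11.4 and 10.8 CPM in unconditioned and 19.1, 24.5 and 30.1 CPM in conditioned KO libraries, so the groups did not overlap. The WT libraries gave 15.2 and 10.8 CPM in unconditioned and 19.6, 13.4 and 20.0 CPM in conditioned medium, all below conditioned KO libraries 1 and 2. The log2 change in KO was 1.04 (SE 0.23, adjusted p = 0.0167), a 2.06-fold rise. In WT it was 0.44 (SE 0.25, adjusted p = 0.476).

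Among small-subunit proteins, Mrps7, of the subunit's head, measured 41.8, 32.5 and 36.9 CPM in unconditioned and 46.8, 69.1 and 81.6 CPM in conditioned KO libraries. Its gene is on chromosome 11 from 115603954 to 115607624. The rise of 0.83 (SE 0.19, adjusted p = 0.0192) was seen without overlap, and the WT libraries ranged from 39.5 to 52.8 CPM, below conditioned KO libraries 1 and 2. Mrps12, a protein of the decoding centre (chromosome 7, 28739641 to 28741781), measured 17.2, 17.2 and 16.6 CPM in unconditioned and 19.3, 30.4 and 35.7 CPM in conditioned KO libraries. It rose by 0.74 (SE 0.20, adjusted p = 0.0345), while the WT libraries stood at 17.0 to 22.4 CPM. Conditioned KO library 0 was therefore within the WT range for both Mrps7 and Mrps12.

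Mrps2, the counterpart of bacterial S2 (chromosome 2, 28468066 to 28471180), showed the order of the conditioned KO libraries plainly. It measured 43.5, 44.6 and 46.4 CPM in unconditioned KO libraries and 44.4, 85.7 and 105 CPM in conditioned ones, with 39.5 to 49.0 CPM over the WT libraries. The groups overlapped, because conditioned KO library 0 lay inside the unconditioned range, and the log2 change was 0.81 (SE 0.25, adjusted p = 0.0476). Mrps34, a small-subunit protein particular to mitochondria, rose by 0.68 (SE 0.16, adjusted p = 0.0231), from 20.4, 20.2 and 19.4 CPM to 24.3, 32.0 and 39.6 CPM.

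The Mrps18 family has 3 genes, of which Mrps18a encodes a large-subunit protein and Mrps18b and Mrps18c small-subunit proteins. Mrps18a (chromosome 17, 46111004 to 46128908) measured 18.6, 17.9 and 19.2 CPM in unconditioned and 21.2, 36.3 and 38.5 CPM in conditioned KO libraries, and 15.8 and 16.1 CPM in unconditioned and 26.3, 23.0 and 23.4 CPM in conditioned WT libraries. Its groups overlapped in neither genotype. Mrps18a rose by 0.79 (SE 0.20, adjusted p = 0.0268) in KO, and in WT its change was 0.60 (SE 0.22, adjusted p = 0.223). Mrps18b changed by 0.39 (SE 0.15, adjusted p = 0.0906) in KO and Mrps18c by -0.24 (SE 0.17, adjusted p = 0.343), so neither passed the test. Differences between these paralogues were not tested.

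The other called large-subunit members were smaller in size. Mrpl37 rose by 0.65 (SE 0.16, adjusted p = 0.0265), Mrpl38 by 0.53 (SE 0.14, adjusted p = 0.0308) and Mrpl54 by 0.51 (SE 0.13, adjusted p = 0.0268), all 3 particular to mitochondria. Mrpl24, the counterpart of a bacterial protein that starts assembly of the large subunit, rose by 0.41 (SE 0.13, adjusted p = 0.0499). In each of these 4 the conditioned KO libraries lay above all unconditioned ones. Over the 77 members this was so in 21 (27.3%, against 15.8% of all genes). The conditioned KO libraries lay below all unconditioned ones in 2 members (2.60%, against 15.4%).

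Mrpl13 was the called member that fell. It is a large-subunit protein with a bacterial counterpart (chromosome 15, 55534095 to 55557312), and it measured 44.3, 51.5 and 52.2 CPM in unconditioned and 40.4, 37.2 and 39.2 CPM in conditioned KO libraries. The groups did not overlap, and the log2 change was -0.34 (SE 0.10, adjusted p = 0.0387). The WT libraries ranged from 38.1 to 43.5 CPM, so the unconditioned KO libraries were the high ones. Scaled by library totals alone, the change of Mrpl13 was -0.15 and was not called (adjusted p = 0.282).

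**Figure D3:**
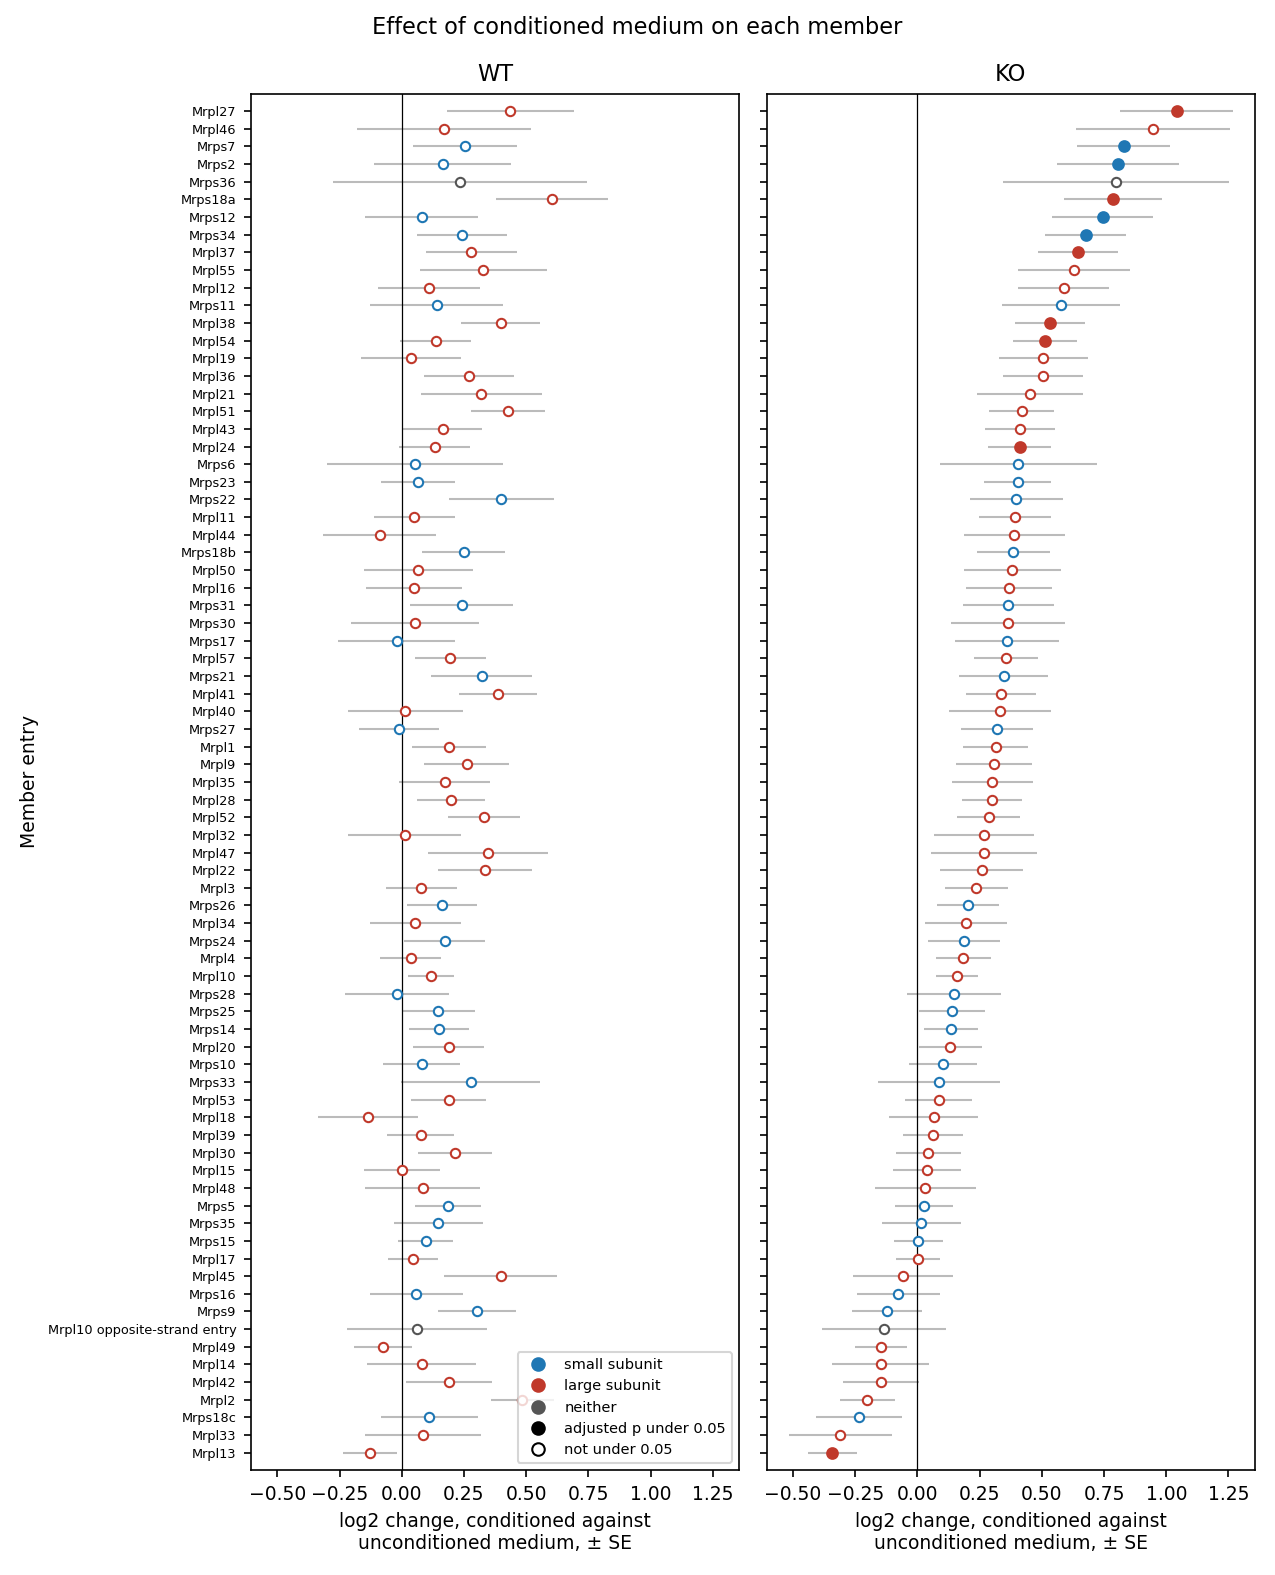
Log2 change in conditioned against unconditioned medium for each of 77 member entries, with its SE, in WT (left) and KO (right), ordered by the KO value. Filled points have an adjusted p under 0.05: 0 in WT, and 11 in KO, of which Mrpl13 alone is negative.

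These counts rested on few libraries. When conditioned KO library 0 was left out, 41 members rose and 1 fell in KO (53.2% and 1.30%, against 22.9% and 21.9% of all genes), and the median log2 change was 0.41. Without conditioned KO library 1 or 2, or unconditioned KO library 1 or 2, no member was called, with 14 to 22 at an unadjusted p under 0.05. With all libraries, such p-values belonged to 27 of 77 members and 5022 of 13603 genes. In the same omissions the share of all genes called in either direction was also low, at 2.36%, 5.09%, 2.95% and 3.37%, and the members' medians were 0.28, 0.17, 0.29 and 0.32. Without conditioned WT library 0, or either unconditioned WT library, 6 members were called, all higher (7.79%), where 12.8%, 11.2% and 11.3% of all genes were called in either direction. With the library number as a block, 4 rose (Mrpl27, Mrpl37, Mrps34 and Mrpl54) and none fell, and 1 rose (Mrpl37) where the merged WT library took number 1 (5.19% and 1.30%, against 7.54% and 6.15% of all genes called higher). Scaled by library totals alone, 26 rose and none fell (33.8% and 0%, against 19.7% and 6.31% of all genes), but that scaling put the median of all genes at 0.21. DESeq2 called 16 higher and 1 lower (20.8% and 1.30%, against 13.2% of all genes in each direction).

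**Figure D4:**
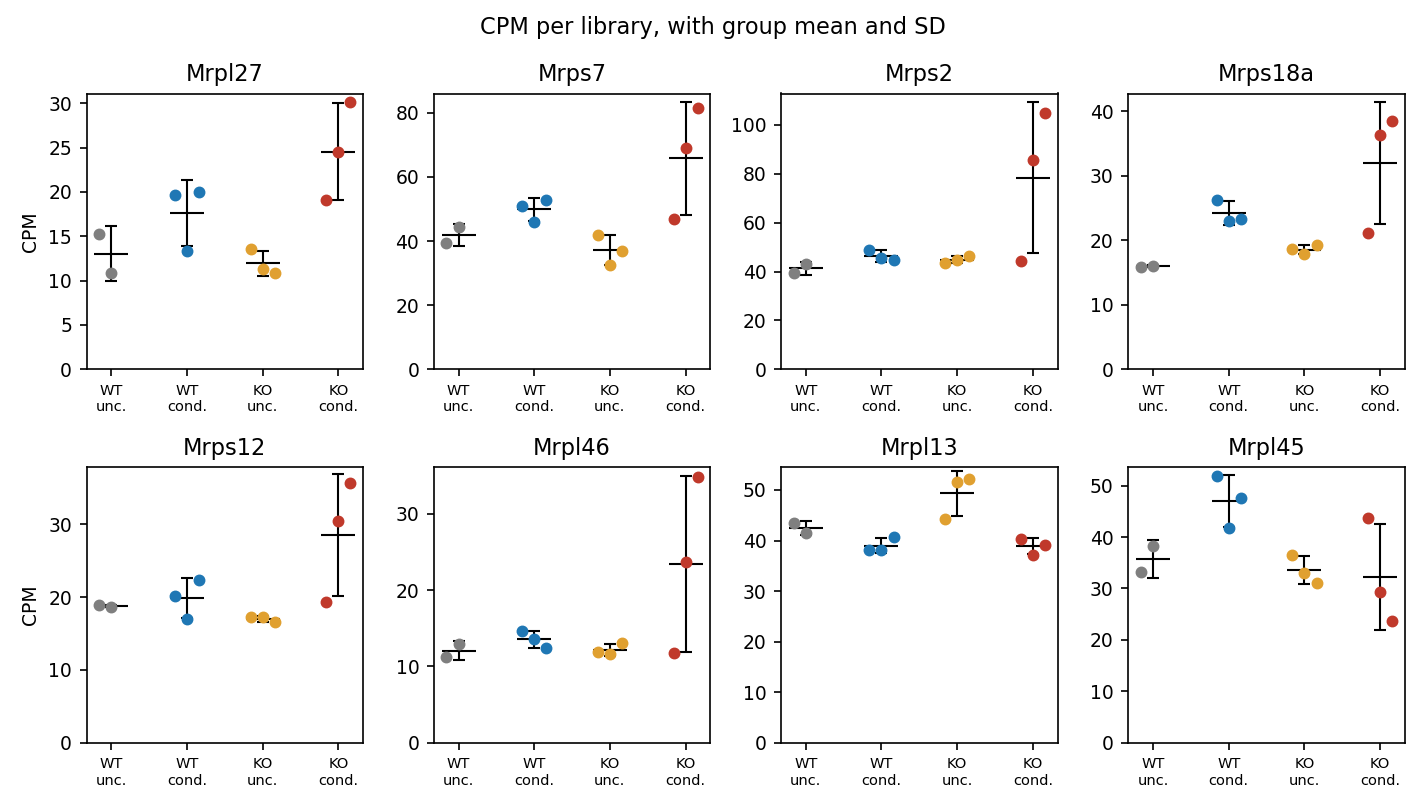
CPM in each library for 8 members, with the group mean and SD as a black bar and whiskers. For Mrps2 and Mrpl46, conditioned KO library 0 (44.4 and 11.7 CPM) lies among the other groups while libraries 1 and 2 lie far above, and Mrpl45 shows the opposite order.

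Mrpl46, a large-subunit protein particular to mitochondria, was not called in KO although its log2 change of 0.95 (SE 0.31, adjusted p = 0.0595) was the next after Mrpl27. It measured 11.7, 23.6 and 34.8 CPM in the conditioned KO libraries and 11.2 to 14.7 CPM in the other 8. Without conditioned KO library 0 its change was 1.27 (adjusted p = 0.000545). Mrpl12, of the stalk that recruits translation factors, measured 41.8, 58.4 and 75.9 CPM in conditioned and 36.9, 41.2 and 39.2 CPM in unconditioned KO libraries, a change of 0.59 (SE 0.18, adjusted p = 0.0518). Both were named after their values were seen.

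In WT cells, no member passed the test for the medium, where 1.23% of all genes were called higher and 0.551% lower. DESeq2 called 1 higher, Mrpl2 (adjusted p = 0.0159), which is 1.30% against 3.26% of all genes. In edgeR, 6 of 77 members had an unadjusted p under 0.05, against 2061 of 13603 genes. The median log2 change was 0.15 over the members and 0.01 over all genes, and 69 of 77 were positive. The conditioned libraries lay above both unconditioned ones in 29 members (37.7%, against 21.8% of all genes) and below them in 2 members, Mrpl44 and Mrpl13 (2.60%, against 20.6%). The members with the smallest p were Mrpl2 at 0.48 (SE 0.13, adjusted p = 0.0865), Mrpl51 at 0.43 (SE 0.15, adjusted p = 0.188) and Mrps18a. Mrpl38 at 0.40 and Mrpl41 at 0.39 came next (adjusted p = 0.259 and 0.275). This comparison holds no KO library, but all libraries share the scaling, the filter and the spread. Without conditioned KO library 0, Mrps18a, Mrpl2 and Mrpl38 were called higher (3.90%, against 3.56% of all genes).

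Averaged over both genotypes, 11 members rose and 1 fell (14.3% and 1.30%, against 10.4% and 10.1% of all genes), with a median of 0.21 against 0.02 over all genes. The largest were Mrpl27 at 0.74 (SE 0.17, adjusted p = 0.0148), Mrps18a at 0.69 (SE 0.15, adjusted p = 0.0112) and Mrps7 at 0.54 (SE 0.14, adjusted p = 0.0243). Mrpl51, particular to mitochondria, rose by 0.42 (SE 0.10, adjusted p = 0.0157). Its libraries measured 30.2 and 34.8 CPM (unconditioned WT), 47.8, 36.4 and 47.0 CPM (conditioned WT), 35.4, 34.1 and 34.1 CPM (unconditioned KO) and 42.2, 44.6 and 51.7 CPM (conditioned KO). Conditioned medium was thus higher without overlap in both genotypes for Mrpl51, and conditioned KO library 0 took part. Mrpl37, Mrpl38, Mrps34, Mrpl36, Mrpl41, Mrpl54 and Mrpl52 rose by 0.31 to 0.46, and Mrpl13 fell by 0.23 (SE 0.07, adjusted p = 0.0469). Members particular to mitochondria, with Mrps18a counted among them, had 8 of 30 called, all higher. Those with a bacterial counterpart had 3 higher and 1 lower of 45.

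This count also moved with single libraries. It was 37 higher and 1 lower without conditioned KO library 0 (48.1% and 1.30%, against 20.9% and 20.7% of all genes). It was 7 without conditioned KO library 2 (9.09%, against 15.7% of all genes called in either direction) and 5 without conditioned WT library 2 (6.49%, against 17.9%). It was 4 (5.19%) without conditioned KO library 1, unconditioned KO library 1 or 2, or conditioned WT library 0, against 12.5%, 12.5%, 13.7% and 12.1% of all genes. It was 2 without the merged unconditioned WT library (2.60%, against 8.86%) and 1 without unconditioned WT library 2 (1.30%, against 8.74%). With the merged WT library as number 1 of a block by library number, Mrps18a and Mrpl51 were called higher (2.60%, against 6.72%).

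KO against WT in conditioned medium gave no called member, and 0% of all genes were called. Among the 77 members, 19 had an unadjusted p under 0.05, against 1897 of 13603 genes, and DESeq2 called no member. The median log2 difference was 0.22 over the members and -0.01 over all genes, with 62 of 77 positive. The smallest p-values belonged to Mrpl24 at 0.48 (SE 0.13), Mrps2 at 0.76 (SE 0.25), Mrps23 at 0.40 (SE 0.13), Mrpl44, which carries a domain like that of ribonuclease III, at 0.55 (SE 0.20), and Mrpl45 at -0.55 (SE 0.20), each with an adjusted p of 0.357. The KO libraries lay above all WT libraries in 5 members (6.49%, against 4.65% of all genes) and below them in 1, Mrpl2 (1.30%, against 4.22%), so separation of the groups was near the background.

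Without conditioned KO library 0, 33 members were higher and 1 lower in this comparison (42.9% and 1.30%, against 17.3% and 15.9% of all genes). Mrps2 then stood at 1.05 (adjusted p = 0.000983), Mrpl46 at 1.12 (adjusted p = 0.00228) and Mrpl45 at -0.82 (adjusted p = 0.00339). Mrpl45, which anchors the ribosome to the inner membrane and lines its exit tunnel, ran against most members. It measured 43.7, 29.3 and 23.7 CPM in the conditioned KO libraries, 51.9, 41.8 and 47.5 CPM in conditioned WT, 36.5, 33.1 and 31.1 CPM in unconditioned KO and 33.1 and 38.3 CPM in unconditioned WT. Conditioned KO libraries 1 and 2 were thus the lowest of the 11 for Mrpl45.

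In unconditioned medium no member differed between KO and WT in edgeR or DESeq2, and 1 gene of all was called (0.00735%). Among the 77 members, 3 had an unadjusted p under 0.05, against 294 of 13603 genes. They were Mrpl2 at 0.41 (SE 0.13), Mrps25 at 0.34 (SE 0.15) and Mrps16 at 0.42 (SE 0.19), each with an adjusted p of 0.998. Mrpl30 at 0.32 (SE 0.15) and Mrps10 at 0.34 (SE 0.16) followed. The median was 0.12 over the members and 0.01 over all genes, and 61 of 77 were positive. The KO libraries lay above both WT libraries in 17 members (22.1%, against 9.12% of all genes) and below them in 3 (3.90%, against 8.01%). For Mrps16, a small-subunit protein, the values were 23.8, 37.6 and 33.7 CPM in KO and 24.2 and 23.1 CPM in WT, so KO library 0 lay between the WT values. Without both KO libraries of number 0, Mrps16, Mrpl30, Mrpl2 and Mrps25 were called higher (5.19%, against 2.13% of all genes).

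The difference between the genotypes' medium effects (the interaction) passed the test for no member and for 0% of all genes. An unadjusted p under 0.05 was found for 1 of 77 members and for 412 of 13603 genes, and DESeq2 called no member. That member was Mrpl2, a large-subunit protein at the interface of the subunits (-0.68, SE 0.17, adjusted p = 0.819). It measured 27.6 and 25.03 CPM in unconditioned and 40.1, 34.2 and 36.1 CPM in conditioned WT libraries, and 31.4, 36.7 and 36.9 CPM in unconditioned and 32.2, 30.6 and 28.6 CPM in conditioned KO libraries. Its level was higher with conditioned medium in WT without overlap, and in KO the groups overlapped, with a change of -0.20 (SE 0.11, adjusted p = 0.215). The next smallest p-values belonged to Mrps12 at 0.66 (SE 0.30), Mrps7 at 0.58 (SE 0.28), Mrps9, a small-subunit protein with a bacterial counterpart, at -0.42 (SE 0.21), and Mrpl54 at 0.38 (SE 0.19), and none of these passed the test (adjusted p = 0.819). Mrps9 measured 23.1 and 17.8 CPM in unconditioned and 27.1, 24.8 and 23.8 CPM in conditioned WT libraries, and 21.2, 24.5 and 25.2 CPM in unconditioned and 24.4, 20.5 and 20.3 CPM in conditioned KO libraries. It was thus higher without overlap in conditioned WT libraries, and its KO groups overlapped. Without conditioned KO library 0, 11 members were called higher and 2 lower (14.3% and 2.60%, against 5.22% and 5.24% of all genes), Mrpl2 and Mrpl45 being those lower.

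Some entries hold more than the member. The entry of Mrps6 also holds Slc5a3, a large transporter transcript that took 68.4% of its fragments, so the entry's change of 0.41 in KO is not that of Mrps6. The Mrps6 isoform alone measured 43.6, 28.6 and 27.0 CPM in unconditioned and 36.7, 51.4 and 69.4 CPM in conditioned KO libraries. The Mrps23 entry also holds Cuedc1 and 2210416O15Rik. Its main Mrps23 isoform, with 56.5% of the fragments, measured 35.4, 35.03 and 34.0 CPM in unconditioned and 34.5, 57.9 and 71.5 CPM in conditioned KO libraries, and 32.3 to 37.6 CPM in WT. Conditioned KO libraries 1 and 2 were again the high ones, and the isoform of Mrpl53, which shares its entry with Ccdc142, showed no such order (24.3, 20.3 and 21.1 CPM). The libraries do not mark the strand, so the reads of the opposite-strand Mrpl10 entry (5.86 to 11.6 CPM) cannot be told apart from those of Mrpl10 (51.0 to 60.5 CPM).

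The authors' deposited table of tests per transcript called 9 member transcripts higher and 0 lower for the medium in KO (9.18% of 98 tested, against 10.9% of all transcripts called in either direction). In the authors' deposited table those transcripts belong to Mrpl27, Mrps7, Mrps2, Mrps18a, Mrps12, Mrps34, Mrpl37, Mrpl46 and Mrpl12. In WT the authors' deposited table called 1, of Mrps18a (1.04%, against 5.66%). For KO against WT in conditioned medium the authors' deposited table called Mrps2, Mrpl50 and Mrpl46 higher (3.06%, against 4.39%), and in unconditioned medium none (against 1.33%). Tested by start site, the authors' deposited table called 4 member groups higher, among them Mrps17 (0.56, q-value 0.0392), and 1 lower, Mrpl45 (-0.55, q-value 0.0482), for KO against WT in conditioned medium (6.02% of 83, against 7.20%).

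Other genes of mitochondrial translation gave mixed counts for the medium in KO, where 9.68% of all genes were called higher and 8.58% lower. Of 22 genes for assembly of the mitochondrial ribosome and modification of its RNA, 4 rose (18.2%) and none fell (median 0.36): Fastkd2, an RNA-binding protein (0.9999, adjusted p = 0.0215), Mpv17l2 (0.81, adjusted p = 0.0117), the GTPase Mtg2 (0.77, adjusted p = 0.0447) and the pseudouridine synthase-like Rpusd3 (0.74, adjusted p = 0.0483). Of 17 translation factors and regulators, 2 rose (11.8%): Lrpprc, which stabilises mitochondrial messages (0.74, adjusted p = 0.00669), and the initiation factor Mtif3 (0.59, adjusted p = 0.034). Lrpprc also rose in WT (0.69, adjusted p = 0.0335). Of 20 aminoacyl-tRNA synthetases and amidotransferase subunits 1 rose (5.00%), the amidotransferase subunit Pet112 (0.75, adjusted p = 0.0456), and of 6 mitochondrial ribosomal proteins with other symbols 1 fell (16.7%), Dap3 (-0.49, adjusted p = 0.0271). Of 16 genes of mitochondrial genome expression and its regulators 2 rose (12.5%), the helicase Peo1 (0.97, adjusted p = 0.0422) and the coactivator Ppargc1a (4.66, adjusted p = 0.00497).

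The list medians by library set the members beside other families. The assembly genes had medians of -0.08, 0.25 and 0.50 in conditioned KO libraries 0, 1 and 2. The nuclear respiratory chain and ATP synthase subunits (82 tested) had 0.12, -0.08 and -0.15 in these libraries, with the library order of the members turned round. That list was taken by symbol and also holds genes that are not subunits, such as the assembly factor Uqcc2, counted here with them. For the medium in KO, 0 of these subunits rose (against 9.68% of all genes). Of them 1 fell, Cox4i2 (-2.42, adjusted p = 0.0451), which is 1.22% against 8.58% of all genes. Cytosolic ribosomal proteins (80 tested) had -0.0042, -0.07 and -0.11 in conditioned KO libraries 0, 1 and 2, and 0.31 and 0.39 in unconditioned KO libraries 1 and 2. For the medium in KO, 0 of these proteins rose and 11 fell (13.8%, against 8.58% of all genes), among them Rpl3 (-0.997, adjusted p = 0.0123). Averaged over the genotypes, 10 respiratory chain subunits rose (12.2%, against 10.4% of all genes), a share near the background. The 4 cytosolic ribosomal proteins that fell, Rpl3, Rpl4, Rps9 and Rpl7a, were 5.00% of that list, against 10.1% of all genes. The members' difference from these lists was not tested. Markers of proliferating cells summed to 268 to 290 CPM in the conditioned KO libraries, 654 to 1030 CPM in unconditioned KO, 148 to 358 CPM in conditioned WT and 523 to 778 CPM in unconditioned WT, and 6 of 10 fell with the medium in KO. Other markers also moved among the conditioned KO libraries. The 3 endothelial markers summed to 4.92, 11.9 and 11.6 CPM in libraries 0, 1 and 2, against 2.96 to 4.33 CPM in unconditioned KO and 3.88 to 9.86 CPM in WT, and of the 2 tested Kdr rose with the medium in KO (2.29, adjusted p = 0.041). The 7 tested osteoblast markers had medians of 0.08, -0.27 and -0.89 in these libraries, and 1 of them, Alpl, the alkaline phosphatase of mineralising cells, fell (-1.68, adjusted p = 0.0366). The macrophage markers summed to 111, 78.6 and 44.5 CPM there, and none of the 6 passed the test. The part of these cell types in the members' changes was not tested.

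**Figure D5:**
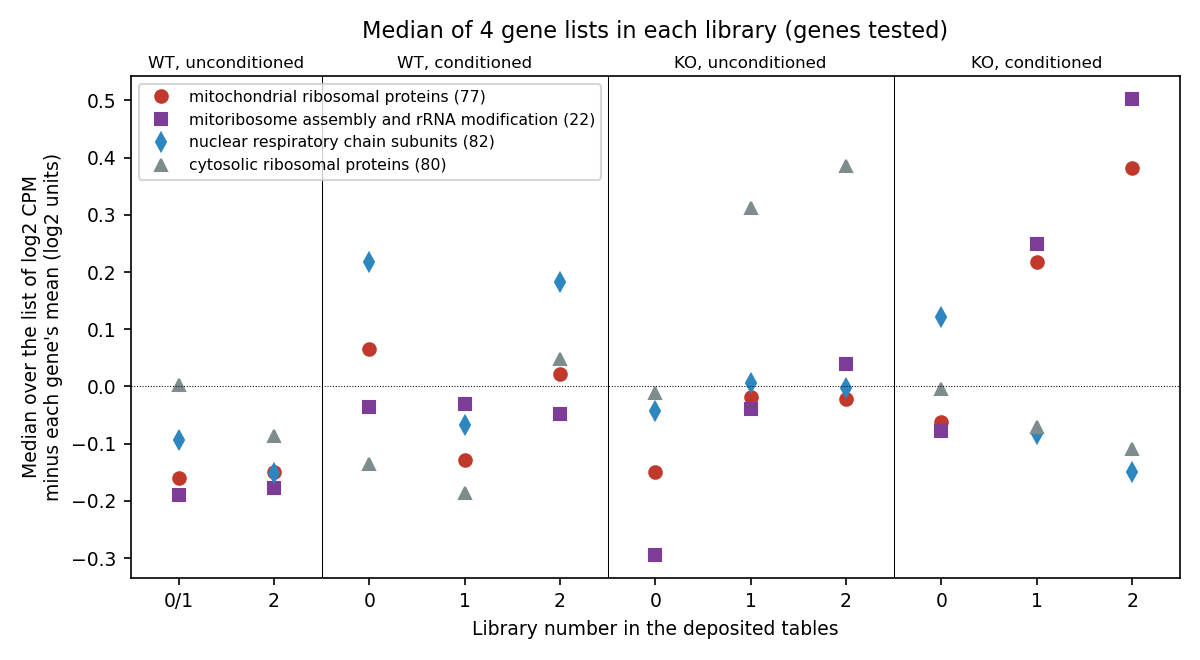
Median over 4 gene lists of log2 CPM minus each gene's mean, in each library, with the number of genes tested in brackets. In conditioned KO libraries 1 and 2 the members (0.22 and 0.38) and the assembly genes (0.25 and 0.50) are high, whereas the respiratory chain subunits (-0.08 and -0.15) are not.

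Promoter windows show what the genes of members share in sequence. RefSeq windows of GRCm38.p6, which run from 250 bases before to 50 bases after a start site, were matched by symbol for 68 of 77 members (74 windows). No window was matched for Mrps34, Mrps28, Mrpl19, Mrpl54, Mrpl4, Mrpl38, Mrps35, Mrpl13 and Mrpl15. Searched on both strands, the letters CCGGAAG of the GABP (ETS family) site were in 33.8% of member windows, against 16.1% of windows of tested genes and 8.86% of all 32851 windows. AAGATGGC of the YY1 site was in 16.2%, against 4.08% and 2.75%. The palindromic NRF1 site was in 4.05%, against 1.94% and 0.971%, which is 3 member windows. CCAAT of the NF-Y site was in 40.5%, against 37.5% and 37.4%. A match is a description of the letters and not a bound site.

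Stretches from 100 bases before to 30 bases after the start site are shown for 6 members called for the medium in KO or in the average over genotypes. They are examples: the called Mrpl24, Mrpl36, Mrpl37, Mrpl41 and Mrpl52 also had windows and are not shown. The stretch of Mrps7 lies wholly inside its deposited entry, which starts further upstream. Capitals mark the letters of any of these motifs, on either strand, and each line runs 5′ to 3′ along the gene's strand. Mrps18a lies at chr17:46110904-46111033 (plus strand), Mrps7 at chr11:115604040-115604169 (plus strand), Mrpl27 at chr11:94653691-94653820 (plus strand), Mrps12 at chr7:28741792-28741921 (minus strand), Mrpl51 at chr6:125192100-125192229 (plus strand) and Mrps2 at chr2:28467966-28468095 (plus strand).
Mrps18a: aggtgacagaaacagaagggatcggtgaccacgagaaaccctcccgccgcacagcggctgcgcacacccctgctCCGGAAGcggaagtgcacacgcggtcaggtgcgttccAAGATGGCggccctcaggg
Mrps7: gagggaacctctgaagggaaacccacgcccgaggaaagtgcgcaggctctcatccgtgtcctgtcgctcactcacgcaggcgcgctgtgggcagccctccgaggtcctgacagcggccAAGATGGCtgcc
Mrpl27: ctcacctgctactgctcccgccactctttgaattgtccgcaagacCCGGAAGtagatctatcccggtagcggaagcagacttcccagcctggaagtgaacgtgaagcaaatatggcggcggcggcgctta
Mrps12: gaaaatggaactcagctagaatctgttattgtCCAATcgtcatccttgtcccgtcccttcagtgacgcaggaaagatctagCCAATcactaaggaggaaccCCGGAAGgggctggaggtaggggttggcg
Mrpl51: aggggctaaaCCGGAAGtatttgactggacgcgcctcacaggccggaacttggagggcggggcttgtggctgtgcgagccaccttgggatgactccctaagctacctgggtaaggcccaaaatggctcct
Mrps2: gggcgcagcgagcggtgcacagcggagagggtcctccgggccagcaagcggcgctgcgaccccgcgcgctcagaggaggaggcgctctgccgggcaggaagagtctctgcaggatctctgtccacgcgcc

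Mrps18a held both the GABP and the YY1 letters in this stretch. Mrps7 held the YY1 letters, Mrpl27 and Mrpl51 the GABP letters, and Mrps12 the GABP letters and a pair of CCAAT matches. The stretch of Mrps2 held no match, so none of these motifs was in the stretch of each of the 6. Whether these letters relate to the changes was not tested. Among the called members not shown, Mrpl24 held no match in the same stretch. Mrpl36 held the YY1 letters, Mrpl37 and Mrpl41 CCAAT and Mrpl52 the GABP letters.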

How the data were processed

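RNA-seq of 12 samples in 4 groups was analysed. TopHat2 2.0.9, Cufflinks 2.1.1 and Cuffdiff 2.1.1, with CASAVA 1.8.2, and the mouse build GRCm38 (mm10) are named, per the submitters' processing notes. The values are raw fragments per gene and library as Cuffdiff wrote them, which per the file headers and their size are an estimated count, and 94.3% of them are whole to within 1e-09. They were rounded. Isoform fragments come from the deposited isoform table in the same unit. The FPKM values, per the file headers, are fragments per length and depth, scaled by the authors. The q-value of each test in the authors' deposited tables is from Cuffdiff, and other columns, such as lengths in bases, were read per the file headers. Starts are given 1 base after the deposited ones, since 10781 then equalled an annotated start and 651 did so as deposited.

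The 1714 genes with no symbol (2.69% to 3.10% of a library's fragments) stayed out of library sizes and tests. Unconditioned WT libraries 0 and 1 had equal values for 90.7% of genes (chi-square 760.5 on 13763 degrees of freedom) and entered as their mean. A design with 12 libraries had been written, and the fit with 11 has 7 residual degrees of freedom. Library numbers start at 0 in the tables and at 1 in the titles, and could not be matched. The fit used edgeR 4.0.16 in R 4.3.3 (TMM, filterByExpr, robust quasi-likelihood) on 13603 genes of all 4 groups, with 6 comparisons, each adjusted by Benjamini-Hochberg over all genes, and a threshold of 0.05. SE is the size of the log2 change over the square root of F. CPM is on effective library sizes, and the log2 CPM used for centring has a prior count of 2. The common biological coefficient of variation was 0.238. Tested on simulated data for the medium in KO (13415 genes, 200 changed), the fit recovered 45% of changes of 1 and 94% of changes of 2 in log2, and 5.44% of its calls were false. Simulated libraries varied independently, and the changed genes were drawn from well-counted ones only. No simulated library stood apart as conditioned KO libraries 1 and 2 did, so these rates do not cover error of that kind.

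Within KO, deviations of same-numbered libraries from their group means correlated across genes (r = 0.35, 0.24 and 0.32), which was taken as pairing, so blocked counts are given there. KO pairs of unlike number had r from -0.36 to 0.28, the highest above the same-numbered pair at 0.24, so the pairing is not certain. Within WT the same-numbered pairs had r = -0.15 and 0.44, and the merged library has 2 numbers. Alternatives were DESeq2 1.42.0, limma 3.58.1 on log2(FPKM + 1), other scaling, no filter, 12 libraries, blocks and leaving out each library.

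Members were named by this rule: in each comparison the called members up to 10 per direction, or where under 5 were called the 5 with the smallest p; the 3 highest and 3 lowest by FPKM; those failing the filter; the Mrps18 family; and members against the majority at an unadjusted p under 0.05. From each other list up to 4 called genes per direction were named. The members and lists were chosen with earlier results of these data known. Mitochondrially encoded messages were not analysed here. Markers of skeletal muscle (14.99 to 168 CPM summed), keratinocytes (0 to 22.01 CPM) and endothelium (2.96 to 11.9 CPM) were also summed per library.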

Additional observations from a re-analysis of the deposited data

How the results depend on the processing

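Leaving out each library in turn, the number of members called ranged from 0 to 42 for the medium in KO (11 with all libraries), 1 to 38 averaged over genotypes (12), 0 to 34 for KO against WT in conditioned medium (0), 0 to 3 for the medium in WT (0) and 0 to 13 for the interaction (0), and stayed at 0 for KO against WT in unconditioned medium. The upper ends are those without conditioned KO library 0. The median change of the members in KO ranged from 0.17 to 0.41 under these omissions, with the lower end without conditioned KO library 2. Where an unconditioned WT library is left out, the lone sample of that group is assumed to vary like the other groups. Without both KO libraries of number 0, the counts were 4 (KO against WT, unconditioned), 43 (conditioned), 4 (medium in WT), 40 (medium in KO), 37 (average) and 13 (interaction). In that order these were 5.19%, 55.8%, 5.19%, 51.9%, 48.1% and 16.9% of members. The shares of all genes were 4.86%, 42.6%, 11.7%, 50.4%, 48.6% and 19.2%. DESeq2 called 1 member for the medium in WT and 17 in KO (1.30% and 22.1%, against 6.51% and 26.4% of all genes). With all 12 libraries as replicates the counts were 1, 18 and 23 for the medium in WT, in KO and on average (1.30%, 23.4% and 29.9%, against 6.89%, 25.1% and 30.3% of all genes). With no filter on low counts, 7 were called on average (8.97%, against 13.8% of all genes). Scaled by library totals, 26 were called in KO and 26 on average, and the medians of members were 0.51, 0.34 and 0.26 (interaction), while the medians of all genes moved to 0.21, 0.15 and 0.10. With a block by library number the count was 4 in KO and 9 on average (5.19% and 11.7%, against 16.3% and 19.1% of all genes). It was 0 for the medium in WT (against 1.14%) and for the interaction (against 0%). A pairing with the merged WT library as number 1 was chosen after seeing the data. It gave 1 in KO and 2 on average (1.30% and 2.60%, against 13.2% and 13.9%). The cause of these differences was not tested. No median of the members changed sign under any alternative run. Of the values for single named members, 910 kept their side of the threshold, 178 fell below it and 38 rose above it. Direction was not always kept for small changes. Averaged over genotypes, 69 of 77 members were positive in the main fit and 76 when scaled by library totals alone. At this depth, Mrpl23 could not be tested.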
